A study of Mus musculus with 30 samples.

Results

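Most of the genes described here encode parts of motile cilia. All were measured by RNA sequencing in the subventricular zone (SVZ) and the striatum of mice with or without ablation of endogenous neural precursor cells (eNPCs). They were chosen by name: every Cfap (cilia and flagella associated protein), Rsph (radial spoke head) and tektin (Tekt) gene, the sperm associated antigens Spag6, Spag6l, Spag16 and Spag17, and Maats1, Ankub1, Hydin and Sspo. Both count tables held 47 such genes. Testing required a level above 1 CPM (counts scaled to a common library total) in 3 or more of a tissue's 15 libraries, which left 41 of 47 in the SVZ (of 16375 genes tested there) and 33 of 47 in the striatum (of 15419). The third highest library of Cfap58, just outside this filter in the SVZ, held 0.964 CPM, and that of Sspo, just inside it in the striatum, held 1.12 CPM.

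NestinTK mice carry a viral thymidine kinase under the second intron enhancer of Nestin, an intermediate filament gene of neural precursor cells. Ganciclovir (GCV), which the kinase turns into a toxin of dividing cells, or saline (PBS) was given for 4 weeks by subcutaneous minipump. The 15 mice, each with 1 library per tissue, fell into 4 groups: 5 ablated NestinTK+GCV+ mice (A1 to A5), and as controls 3 wild-type littermates with ganciclovir, NestinTK-GCV+ (G1 to G3), 3 with PBS, NestinTK-PBS+ (P1 to P3), and 4 transgenic mice with PBS, NestinTK+PBS+ (T1 to T4). All were on a C57Bl/6 background. Adult females and males were used, with neither sex nor age labelled per library. The SVZ libraries are labelled as neural precursor cells, but the protocol dissected tissue. Genes of medium spiny neurons, the main neurons of the striatum, were abundant in every SVZ library, at a summed 3836 CPM or more.

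A motile cilium is built on an axoneme of doublet microtubules around a central pair. Dynein arms on the doublets make them slide, radial spokes carry signals from the central apparatus to the dyneins, and tektins and other microtubule inner proteins stiffen the doublet wall. In the forebrain such cilia belong to the ependymal cells that line the ventricles beside the SVZ, and to the choroid plexus, whose cilia are short. Foxj1, the master transcription factor of motile ciliogenesis, acts with RFX factors on many axonemal genes.

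RefSeq promoters (GRCm38.p6, 250 bases before to 50 after the annotated start) were found for 38 of the 47 genes, and were searched on both strands for the RFX half-site GTTGCC, the longer run GTTGCCATG, which contains it, and the forkhead site TGTTTAC. The half-site occurred in the promoters of 16 of 38 genes (42.1%), against 14.1% of 27025 genes with a promoter. The longer run occurred in 2 of 38 (Cfap161 and Cfap74; 5.26% against 0.877%), and the forkhead site in 3 of 38 (Cfap20, Cfap43 and Tekt3; 7.89% against 4.05%). A match describes letters in this window and is not a binding site. The promoters of the gene with the smallest p in the SVZ (Maats1), of the gene with the smallest p in the striatum in a contrast of 2 groups (Cfap20), and of a gene with repeated half-sites (Cfap161) are shown 5′ to 3′ on the strand of the gene, with motif letters of either strand in capitals.
Maats1, chr16:38341811-38342110, minus strand: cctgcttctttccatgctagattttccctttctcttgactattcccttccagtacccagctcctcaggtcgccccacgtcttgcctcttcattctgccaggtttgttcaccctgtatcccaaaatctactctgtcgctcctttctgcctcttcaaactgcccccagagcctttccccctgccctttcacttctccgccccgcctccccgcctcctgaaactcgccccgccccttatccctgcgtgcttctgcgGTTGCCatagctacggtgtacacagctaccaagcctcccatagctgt
Cfap20, chr8:95434820-95435119, minus strand: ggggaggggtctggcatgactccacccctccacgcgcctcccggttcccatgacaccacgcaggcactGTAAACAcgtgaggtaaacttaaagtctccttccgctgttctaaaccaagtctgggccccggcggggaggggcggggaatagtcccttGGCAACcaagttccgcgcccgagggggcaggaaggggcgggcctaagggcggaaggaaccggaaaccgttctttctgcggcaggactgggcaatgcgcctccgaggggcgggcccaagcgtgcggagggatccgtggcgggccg
Cfap161, chr7:83794790-83795089, minus strand: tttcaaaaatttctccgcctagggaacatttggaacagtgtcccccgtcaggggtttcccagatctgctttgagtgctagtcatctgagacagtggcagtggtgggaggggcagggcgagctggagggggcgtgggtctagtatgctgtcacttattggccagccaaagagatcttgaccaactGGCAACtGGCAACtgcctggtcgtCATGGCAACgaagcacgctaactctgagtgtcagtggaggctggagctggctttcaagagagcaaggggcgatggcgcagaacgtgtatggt

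Depth ran from 8.36 to 21.1 M counts (M, mega) in the SVZ and from 2.63 to 4.69 M in the striatum. It was not even between groups. In the SVZ, A1 to A5 held 9.6, 8.88, 8.36, 8.38 and 8.45 M, and controls 8.95 to 21.1 M. In the striatum, A1 to A5 held 3.37, 2.75, 3.08, 2.63 and 2.67 M, and controls 2.78 to 4.69 M. Numbers of genes at 0 counts or over 1 CPM were not corrected for this. Ttr, the transthyretin gene that marks choroid plexus, held more than 1% of counts in SVZ libraries P1, P2 and T3 (4.49% to 9.88%) and at most 0.0789% in the other SVZ libraries. Libraries A3 and A5 stood apart among the ablated mice, with 18 and 19 of 41 tested cilia genes at 0 counts, beside 15.9% and 11% of all genes tested; every other SVZ library had 9 or fewer at 0. Every ganciclovir library had a lower library number (1 to 9 in the SVZ, 1 to 10 in the striatum) than every PBS library (13 to 20 and 11 to 20), so drug and numbering order cannot be told apart. Mouse numbers came in 2 series, whose meaning was not stated: the series beginning with 40 held all ablated mice, G2, G3, T2, T3 and T4, and the other held all NestinTK-PBS+ mice, G1 and T1. Ablation and number series therefore cannot be told apart in the comparison with NestinTK-PBS+ mice, and among wild-type mice G1 was the only ganciclovir mouse of the series that held the PBS mice. In tissue, fewer ciliated cells and less RNA per cell cannot be told apart from these counts either. The paper reported no overt loss of ependymal cells in ablated mice compared with controls. No ependymal cell count was given per library.

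To see how cilia genes behaved in the SVZ after ablation, ablated mice were first compared with the 3 control groups pooled. Few single genes passed, and those that did were near 0 in the ablated mice. By edgeR's quasi-likelihood test, 4 of 41 tested cilia genes were called lower (nominal p of 0.01 or less and at least 2-fold), namely Maats1, Sspo, Ankub1 and Tekt4, against 1.22% of all genes tested. None was called higher, against 0.373% of all genes, and none was higher at an unadjusted p under 0.05 either, where 3.73% of all genes were. Limma-voom and DESeq2 also called 0 higher. At an unadjusted p under 0.05, 9 of 41 were lower, against 6.09% of all genes. No adjusted p was under 0.05: the smallest was 0.259, for Maats1. Maats1, Sspo and Ankub1 were put in the set by their own names, with earlier results of these data known. Of the called genes, Tekt4 alone came in through a gene family. The share of cilia genes called, here and in the contrasts below, is therefore a description.

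The median log2 fold change of the 41 genes was -0.80, against -0.03 for all genes tested, and 36 of 41 had a fitted change below 0, against 51.9% of all genes. These are descriptions, because 20 of the 41 passed the filter through the control libraries alone which selects for higher control values. All 4 called genes are among those 20. Of the 21 genes that passed on either set of libraries alone, 17 lay below 0 and their median was -0.49. Without the Ttr-rich libraries the median was -0.47, over 38 genes.

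**Figure D1:**
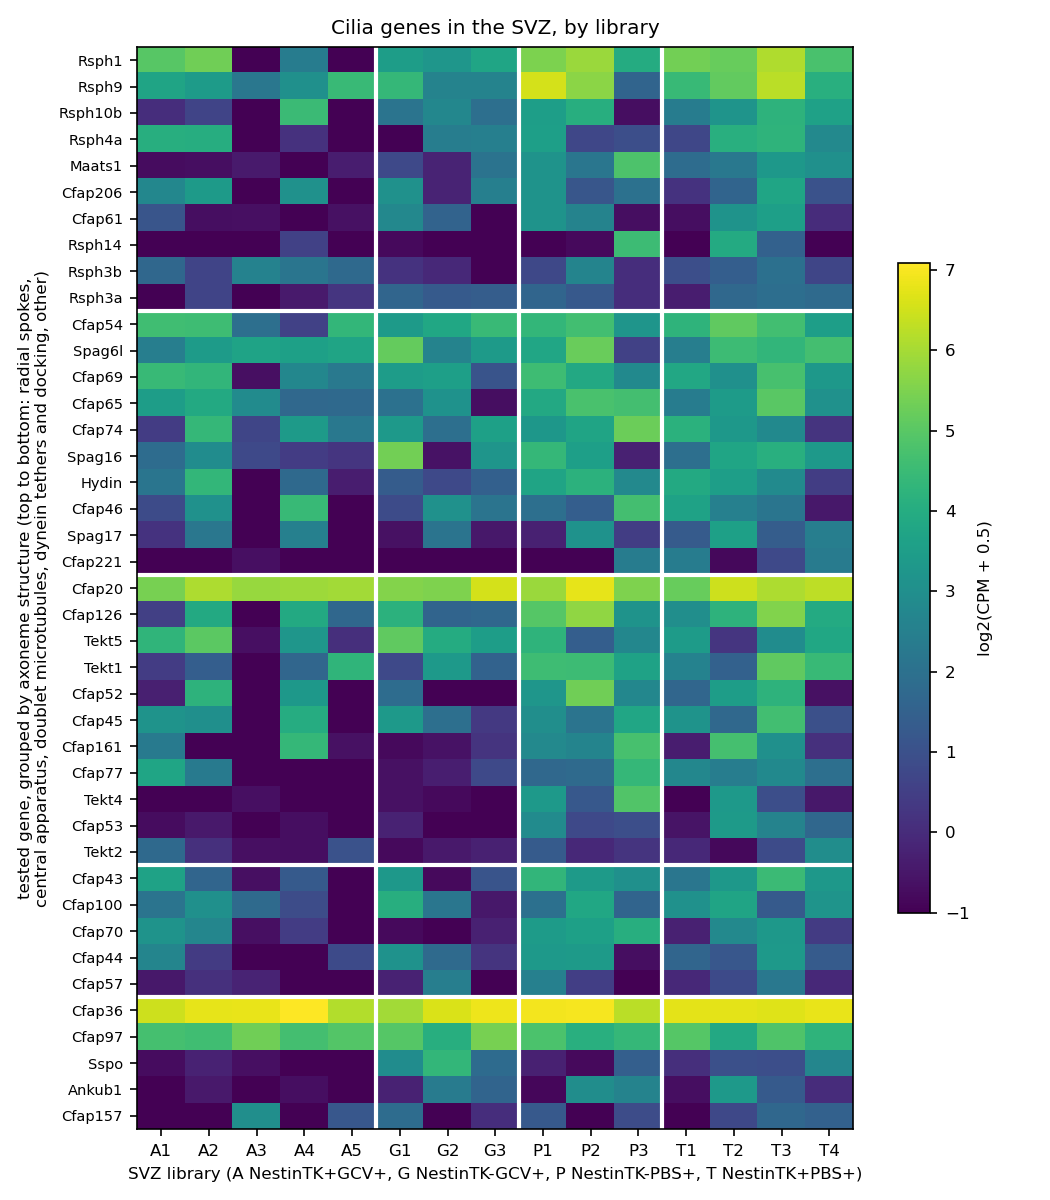
Heat map of the 41 tested cilia genes (rows, grouped by axoneme structure) in the 15 SVZ libraries (columns, by group), coloured by log2(CPM + 0.5). Cfap36, Cfap20 and Cfap97 are bright in every library, while most other genes are dark in A3 and A5 and change from library to library within a group.

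Maats1, a protein at the base of the radial spoke, was the only tested cilia gene whose ablated and control SVZ libraries did not overlap, a pattern seen in 0.147% of all genes tested. The gene lies on chromosome 16 from 38297754 to 38342143 (GRCm38, GENCODE vM21). It read 0.107, 0.12, 0.247, 0 and 0.278 CPM in A1 to A5, at most 2 counts a library. It read 1.22, 0.378 and 3.74 CPM in the NestinTK-GCV+ mice, 8.31, 3.97 and 27.8 CPM in the NestinTK-PBS+ mice, and 3.16, 4.19, 9.4 and 7.87 CPM in the NestinTK+PBS+ mice. All 5 ablated libraries were near the detection limit, and the lowest controls were G1 and G2. The fitted log2 fold change was -5.46 (SE 1.19, adjusted p = 0.259). Counts over all libraries were 6 against 879, so controls held 43.8 times the ablated level (95% exact interval 20.1 to 119.7, counting error only). An antisense gene, Maats1os, shares 305 exon bases with Maats1 but is listed at 0 in every library.

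Sspo, which encodes SCO-spondin, a secreted glycoprotein of the cerebrospinal fluid rather than an axonemal protein, lies on chromosome 6 from 48448229 to 48501250. It read 0.107, 0.359, 0.124, 0 and 0 CPM in A1 to A5, 7.09, 20.1 and 3.08 CPM in NestinTK-GCV+ mice, 0.336, 0.0763 and 2.2 CPM in NestinTK-PBS+ mice, and 0.575, 1.46, 1.44 and 6.01 CPM in NestinTK+PBS+ mice. The ganciclovir-treated wild-type mice were thus the highest group and the ablated mice the lowest. The log2 fold change was -5.04 (SE 1.48, adjusted p = 0.347).

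Ankub1, on chromosome 3 from 57657393 to 57692799, read at most 0.24 CPM (2 counts) in the ablated mice, with 3 of 5 at 0. Its control libraries ran from 0.0481 to 9.77 CPM with a median of 2.25, and P1 and T1 lay within the ablated range. The log2 fold change was -5.31 (SE 1.59, adjusted p = 0.347). Ankub1 was low in every ablated library but not high in every control.

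Tekt4, a tektin of the doublet wall on chromosome 17 from 25454615 to 25476602, held 1 count in the 5 ablated libraries together against 656 in the controls. Its level was 9.56, 1.83 and 29.4 CPM in NestinTK-PBS+ mice and 0, 9.84, 1.44 and 0.223 CPM in NestinTK+PBS+ mice, but only 0.143, 0.0757 and 0 CPM in NestinTK-GCV+ mice. Both ganciclovir groups were thus at the floor. The log2 fold change against pooled controls was -7.23 (SE 2.17, adjusted p = 0.347). Without the 3 libraries in which Ttr exceeded 1% of counts, and likewise with control mice of the 40 series alone, Maats1, Sspo and Ankub1 were still called, while Tekt4 fell below the filter and was not tested.

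**Figure D2:**
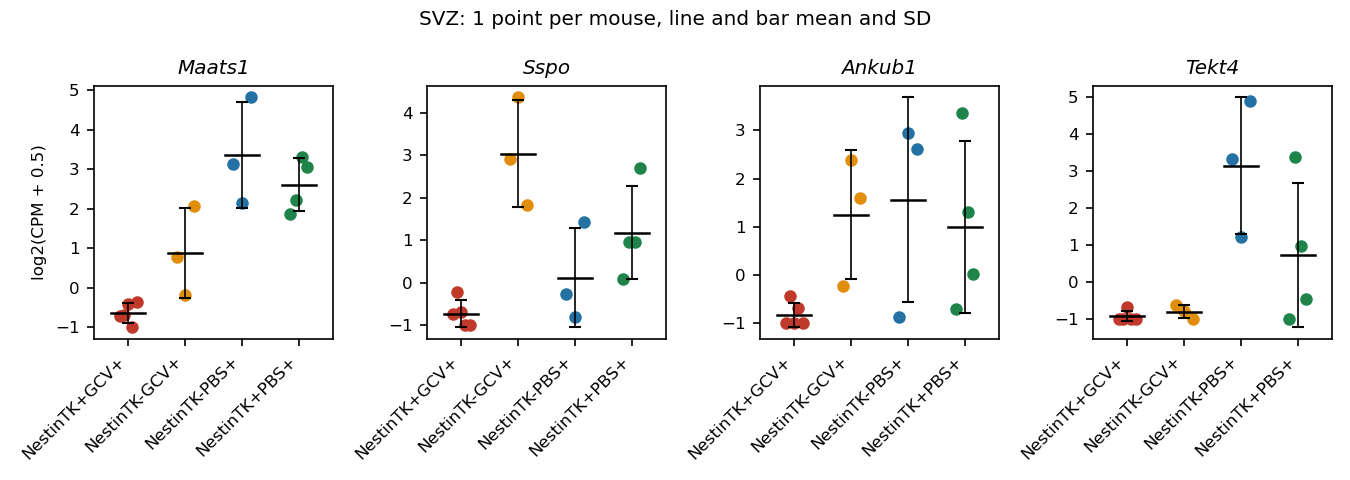
Level of the 4 called genes in the SVZ, as log2(CPM + 0.5), 1 point per mouse with the mean and SD of each group. The 5 NestinTK+GCV+ mice sit at the floor for each gene, and the NestinTK-GCV+ mice sit with them for Tekt4 but above them for Sspo.

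Among the radial spoke genes, 10 of 11 were tested, their median log2 fold change was -1.31, and 8 of 10 lay below 0. Cfap61, of the same spoke-base complex as Maats1, read 1.71 CPM in A1 and at most 0.139 CPM in the other ablated mice, against a control median of 4.07 (log2 fold change -3.33, SE 1.49, adjusted p = 0.474). Rsph9, a spoke head protein, read 12.7, 10.3, 4.08, 7.82 and 22 CPM in A1 to A5 and 2.53 to 94.2 CPM in controls (median 20.8), for a log2 fold change of -1.52 (SE 0.71, adjusted p = 0.498). The highest Rsph9 values, 94.2, 50.5 and 75.5 CPM, were those of P1, P2 and T3, the libraries with most Ttr. Without these libraries the log2 fold change of Rsph9 was -0.42. Rsph1, another spoke head protein, read 31.1, 39.9, 0, 4.77 and 0 CPM in A1 to A5 and 9.01 to 69.3 CPM in controls, so ablated mice held both values within the control range and no reads at all. Rsph3b was the tested spoke gene with the highest change (log2 fold change 0.94, adjusted p = 0.827), but it and Rsph3a are near-identical copies whose reads the counting may have split.

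The central apparatus contributed 10 tested genes of 11, all with a fitted change below 0 (median -0.72) and none called. Spag16, which holds the central pair together, read 3.09, 7.19, 1.24, 0.855 and 0.696 CPM in A1 to A5 and 0.151 to 40.8 CPM in controls (median 10.7), for a log2 fold change of -2.25 (SE 0.99, adjusted p = 0.466). Cfap221 held 1 count in all ablated libraries together, but it was also at 0 in G1, G2, G3, P1 and P2 (log2 fold change -5.47, SE 2.22, adjusted p = 0.428). Hydin, a giant protein of a central pair projection, read 3.95, 19.8, 0, 2.93 and 0.278 CPM in A1 to A5 and 0.89 to 17.7 CPM in controls. Its groups overlapped over nearly their whole range (log2 fold change -0.49, SE 1.01, adjusted p = 0.94). The ablated library A2 alone exceeded every control.

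Of 12 genes of the doublet wall, 11 were tested and 10 lay below 0, with a median of -0.56. Cfap53, a microtubule inner protein also needed for left-right patterning, read at most 0.24 CPM (2 counts) in ablated mice and was just outside the call (log2 fold change -4.78, SE 1.71, adjusted p = 0.385). It was also at 0 in G2 and G3 and at 0.358 CPM in G1, while the PBS libraries ran up to 10.2 CPM. Cfap20, which seals the inner junction between the tubules of the doublet, was of another kind: it was abundant everywhere, at 42.6 to 67 CPM in ablated mice and 36.6 to 109 CPM in controls (log2 fold change -0.22, SE 0.25, adjusted p = 0.852). All 5 tested genes of dynein tethers and docking also lay below 0 (median -1.47), with none called.

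Of the other genes, Cfap36 and Cfap97 were abundant and near even between groups. Cfap36, an Arl3-binding protein, averaged 103 CPM ± 24.9 (SD, n = 5) in ablated mice and 103 CPM ± 20.4 (SD, n = 10) in controls. Cfap97 averaged 28.8 CPM ± 6.71 and 24.5 CPM ± 8.71. Per kilobase of exon, the mean SVZ levels were 37.5 CPM per kb for Cfap36, 19.4 for Rsph1, 16.0 for Rsph9 and 14.3 for Cfap20, against a median of 1.25 CPM per kb over the 41 genes.

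To separate drug from transgene, the 4 groups were then fitted together. The median of the 41 genes was 0.12 on the log2 scale against NestinTK-GCV+ mice, -1.36 against NestinTK-PBS+ mice and -1.11 against NestinTK+PBS+ mice; these 3 comparisons share the ablated mice. Against NestinTK-PBS+, NestinTK-GCV+ mice had a median of -1.14, and NestinTK+PBS+ mice one of -0.07. The medians of all genes tested lay between -0.03 and 0.03 in these contrasts. These medians were thus below 0 where a ganciclovir group was set against a PBS group, in transgenic and in wild-type mice, and near 0 between the ganciclovir groups and between the PBS groups. The contrasts of ablated and of NestinTK-GCV+ mice with NestinTK-PBS+ mice share P1, P2 and P3. The Ttr-rich libraries are P1 and P2, and T3 among the NestinTK+PBS+ mice. Without them the median against pooled controls moved from -0.80 to -0.47, and the medians of these contrasts were not computed. For the 21 genes that passed on the ablated libraries alone and on the pooled control libraries alone, the medians were 0.11, -0.74, -0.62, -0.90 and -0.07. These genes were not required to pass within the G, P or T mice. The filter can therefore still favour a side in these contrasts.

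Single genes departed from this. Against NestinTK-GCV+ mice, 2 of 41 genes were called, both lower: Sspo (log2 fold change -6.29, SE 1.56, adjusted p = 0.665) and Maats1 (-3.48, SE 1.14, adjusted p = 0.665), against 0.94% of all genes in either direction. Against NestinTK-PBS+ mice 4 of 41 were called, all lower (Maats1, Tekt4, Ankub1 and Cfap53; 1.92% of all genes), and against NestinTK+PBS+ mice 5 of 41, the same 4 and Sspo (1.19% of all genes). Ganciclovir in wild-type mice gave 2 of 41, both lower, against 1.06% of all genes: Tekt4 (log2 fold change -7.29, SE 2.30, adjusted p = 0.646) and Cfap70 (-6.54, SE 2.13, adjusted p = 0.646). Cfap70, of the outer dynein arm base, read 0.0717, 0 and 0.33 CPM in NestinTK-GCV+ mice, 10.3, 11.7 and 16.2 CPM in NestinTK-PBS+ mice, and 8.43, 6.11, 0.124, 0.855 and 0 CPM in A1 to A5. No cilia gene was called for the transgene under PBS by edgeR (0.195% of all genes called), limma-voom or DESeq2. By edgeR, 0 had an unadjusted p under 0.05, where 0.953% of all genes were lower and 1.74% higher. The 2 smallest p there were those of Tekt4 (log2 fold change -2.24) and Cfap74 (-1.22), each with an adjusted p of 1. The genotype by treatment interaction called 1 of 41 genes, Sspo (-7.74 on the log2 scale, SE 2.26, adjusted p = 0.942), against 0.837% of all genes. These calls rested on few libraries. That of Maats1 against NestinTK-GCV+ mice was lost without A1, A2, A4, G3, P3, T3 or T4, and that of the Sspo interaction without G2, P1 or P2. For ganciclovir in wild-type mice no gene was called without G2, and without the Ttr-rich libraries, which leaves P3 as the only NestinTK-PBS+ mouse, the 1 gene called was Cfap221 and Tekt4 was not tested. Without those libraries the interaction called 0 genes, and the comparisons of ablated mice with the G, P and T mice called 1, 2 and 3.

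**Figure D3:**
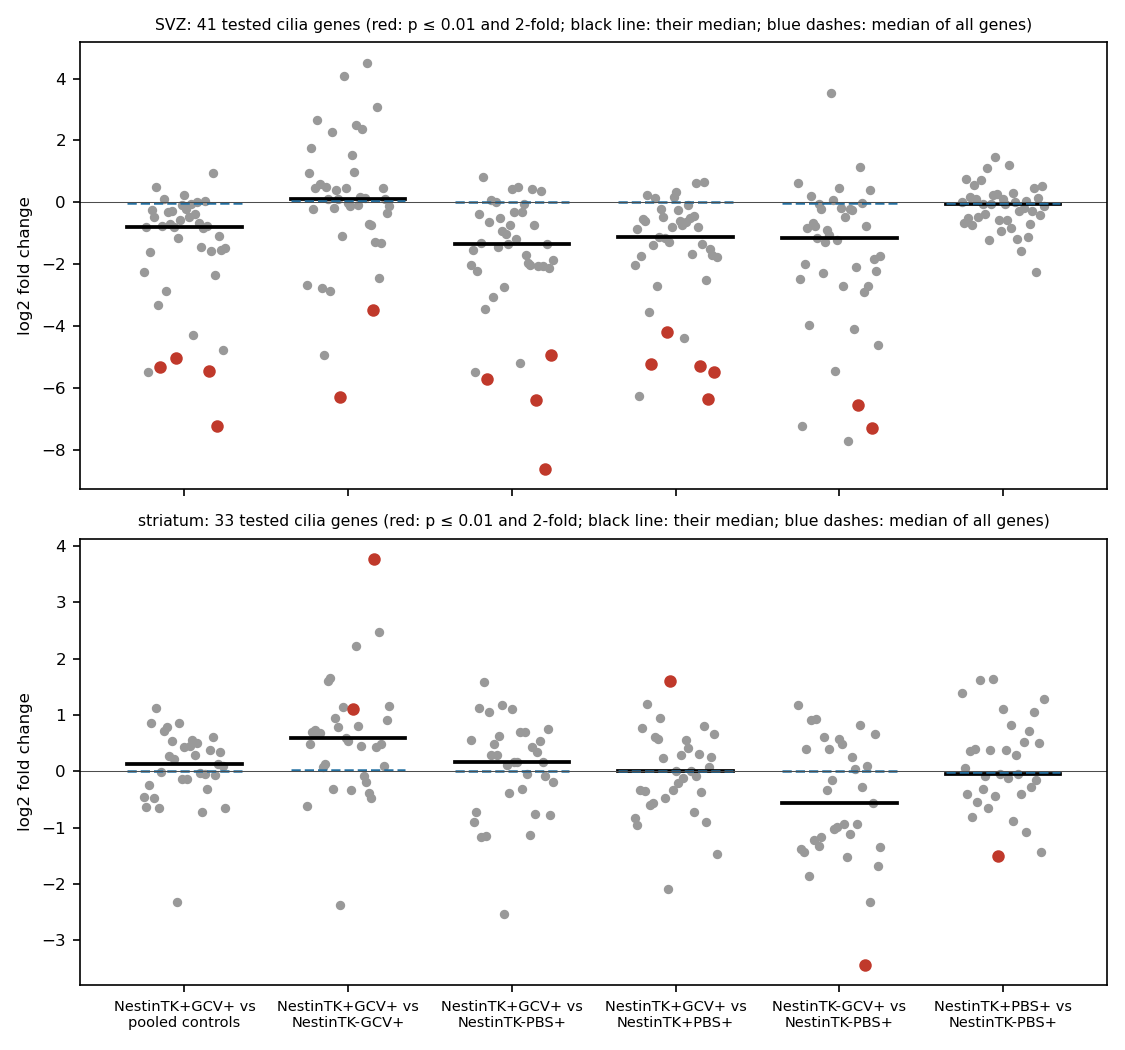
Log2 fold change of each tested cilia gene (points) in 6 contrasts, in the SVZ above and the striatum below, with the median of the cilia genes (black) and of all genes tested (blue dashes). The black line lies near -1 in the SVZ wherever ganciclovir is set against PBS (-1.36, -1.11 and -1.14) and near 0 between the 2 ganciclovir groups and between the 2 PBS groups.

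The number of cilia genes seen in each library is a description only, since it rests on the level the filter used and depth differed between groups. The number over 1 CPM was 25, 28, 12, 23 and 15 of 41 in A1 to A5, 28, 26 and 24 in the NestinTK-GCV+ mice, 36, 35 and 31 in the NestinTK-PBS+ mice, and 28, 38, 41 and 30 in the NestinTK+PBS+ mice. Of all genes tested, 73.5% to 80.4% passed this level in ablated libraries and 75.4% to 87.9% in controls. The 36 genes other than Cfap20, Cfap36, Cfap97, Sspo and Ankub1 (a set chosen after their values were seen) summed to 222, 304, 46.6, 187 and 98.1 CPM in A1 to A5 and to 271, 131 and 121 CPM in NestinTK-GCV+ mice. They summed to 472, 480 and 343 CPM in NestinTK-PBS+ mice and to 227, 375, 567 and 240 CPM in NestinTK+PBS+ mice. The ganciclovir libraries lay lower, with overlap: A2 (304) and G1 (271) exceeded T1 (227) and T4 (240). Over the 15 libraries, which share depth and dissection, the median Spearman correlation of the 820 gene pairs was 0.25. Other lists ran from 0.03 for endothelial and for primary cilium genes, through 0.13 for dynein arms and 0.45 for ependymal markers, to 0.86 for oligodendrocyte genes.

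Genes of the same organelle outside the name rule were described from lists. Foxj1 read 17, 60.7, 5.44, 19.6 and 5.01 CPM in A1 to A5, 16.2, 26.8 and 13.3 CPM in NestinTK-GCV+ mice, 54.7, 66.2 and 32.4 CPM in NestinTK-PBS+ mice and 23.4, 22.3, 54 and 41.8 CPM in NestinTK+PBS+ mice (log2 fold change against pooled controls -0.70, adjusted p = 0.725). Axonemal dynein arms had 1 of 20 tested genes called lower (Ccdc114, an outer arm docking protein; log2 fold change -3.87, adjusted p = 0.347), and other microtubule inner proteins 1 of 7 (Efhc2, -5.71, adjusted p = 0.353). Dynein arm assembly (8 genes), the nexin-dynein regulatory complex and ruler (12) and other central apparatus genes (9) had none called, with medians of -0.33, -0.62 and -0.64. Primary cilium and intraflagellar transport genes, which most cells use, had a median of -0.03 with 0 of 27 called.

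Markers of other cell types moved in the same libraries. Of 16 ependymal markers, 2 of which (Cfap126 and Rsph1) are cilia genes of the rule, 3 were called lower (Ccdc153, Tmem107 and Rarres2), and their summed level was 78.2 to 372 CPM in ablated, 212 to 368 in NestinTK-GCV+, 453 to 599 in NestinTK-PBS+ and 316 to 528 CPM in NestinTK+PBS+ mice. Of 13 choroid plexus markers, 7 were called lower against pooled controls and 9 for ganciclovir in wild-type mice; their sum was 152 to 463 CPM in ablated and 181 to 624 CPM in NestinTK-GCV+ mice, where Aqp1, Slc4a5, Kcnj13 and Cldn2 were at 0, against 389 to 114740 CPM in NestinTK-PBS+ and 299 to 113880 CPM in NestinTK+PBS+ mice. Motile cilia regulators had 1 of 9 called lower (Trp73) but a median of 0.44, and against NestinTK-GCV+ mice 8 of 9 lay above 0 with Rfx3 called higher (1.02). For ganciclovir in wild-type mice, however, 9 of 9 regulators lay below 0, with a median of -3.82. Ablated mice had 6 of 9 below 0 against NestinTK-PBS+ mice (median -1.01) and 4 of 9 against NestinTK+PBS+ mice (median 0.12). Dividing cell markers had 3 of 10 called lower, while astrocyte, oligodendrocyte, medium spiny neuron, microglia and endothelial lists had none. Of 12 neuroblast markers 5 were called lower against pooled controls and 0 for ganciclovir in wild-type mice. The part of these cell types in the cilia gene values was not tested.

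**Figure D4:**
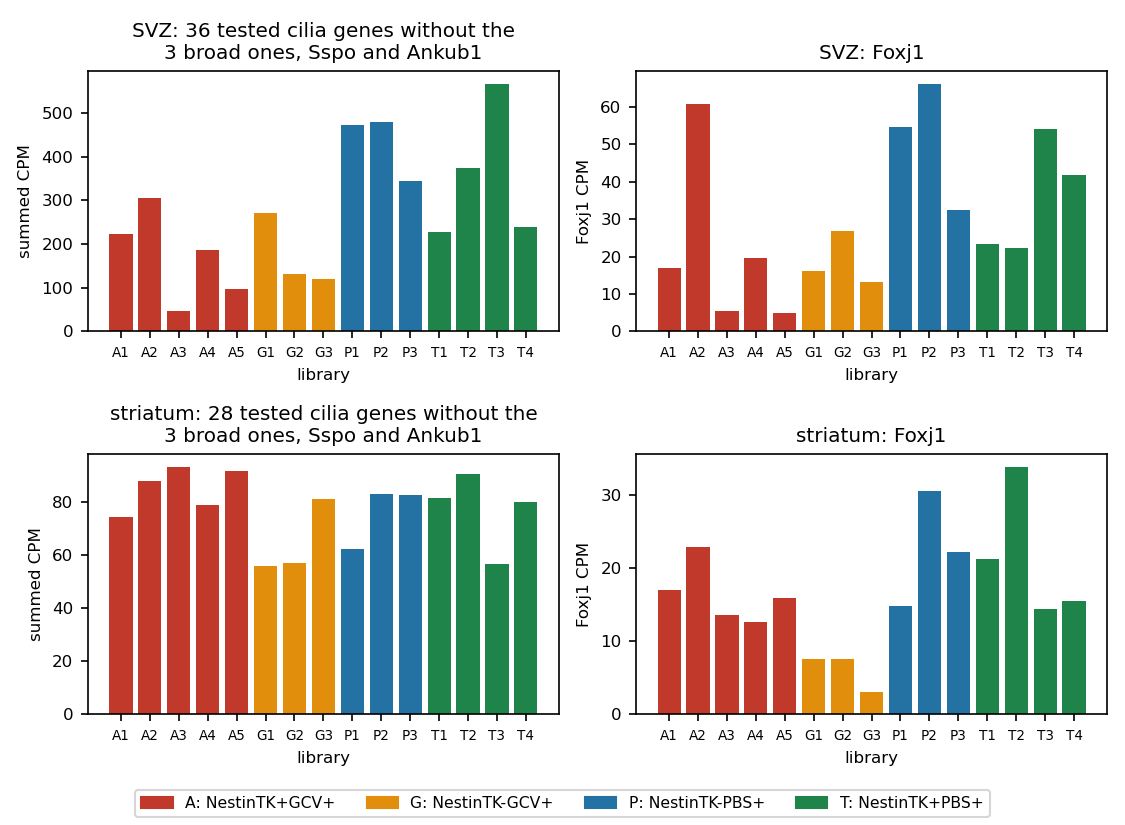
Bars give, per library, the summed CPM of the tested cilia genes other than Cfap20, Cfap36, Cfap97, Sspo and Ankub1 (left) and the CPM of Foxj1 (right), in the SVZ above and the striatum below. In the SVZ the tallest bars are the PBS libraries T3, P2 and P1, and in the striatum Foxj1 is lowest in G1, G2 and G3.

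In the striatum, which borders the lateral ventricle, fewer cilia genes passed the filter and their levels were evener between libraries. Library kit and depth also differed between the tissues. The spread between mice that edgeR fitted over all genes (common biological coefficient of variation) was 0.251 in the striatum and 0.939 in the SVZ. These differences from the SVZ are therefore not particular to cilia genes and cannot be told apart from the kit. Most of the signal came from Cfap36, Cfap97 and Cfap20: Cfap36 averaged 86.6 CPM ± 8.01 (SD, n = 5) in ablated mice and 88.8 ± 12.5 (SD, n = 10) in controls, Cfap97 averaged 23.2 ± 3.62 and 25.6 ± 8.25, and Cfap20 averaged 63.9 ± 9.56 and 46.9 ± 14.2. No cilia gene was called in ablated against pooled control mice by edgeR, limma-voom or DESeq2, where 0.24% of all genes were called lower and 0.454% higher. By edgeR at an unadjusted p under 0.05, 1 of 33 was lower (5.31% of all genes) and 2 of 33 were higher (5.19%). The median was 0.14, and 15 of 33 genes lay below 0, against 49.5% of all genes. The 14 untested genes peaked at 20 counts in 1 library, and Cfap73 and Tekt3 had no count at all.

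Sspo was the 1 gene lower in the striatum at an unadjusted p under 0.05. It held 0, 0.352, 0.332, 0 and 0 CPM in A1 to A5, which is 2 counts in all, against 32 counts in controls at 0.218 to 1.9 CPM (median 0.634). The control libraries thus held 5.98 times the ablated level (95% exact interval 1.53 to 51.5, counting error only). The log2 fold change was -2.32 (SE 0.93, adjusted p = 0.373). Sspo thus averaged lowest in the ablated group in both tissues of the same 5 mice, and its adjusted p was not under 0.05 in either.

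Cfap100, of the inner dynein arm modifier complex, read 3.4, 4.58, 5.64, 2.96 and 7.61 CPM in A1 to A5, 1.9, 2.59 and 2 CPM in NestinTK-GCV+ mice, 2.18, 5 and 6.29 CPM in NestinTK-PBS+ mice and 1.52, 1.87, 1.05 and 1.84 CPM in NestinTK+PBS+ mice. Every ablated value exceeded every value of the transgenic PBS mice but not those of P2 and P3. How many of all genes had this pattern was not counted. Against pooled controls the log2 fold change was 0.86 (SE 0.39, adjusted p = 0.444). The genotype by treatment interaction was 2.64 (SE 0.70, adjusted p = 0.0727). It was the only cilia gene called against NestinTK+PBS+ mice (1.61, adjusted p = 0.177; 1.35% of all genes) and for the transgene under PBS (-1.50, adjusted p = 0.727; 0.83% of all genes), the latter call being lost without P2, P3, T1 or T3.

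Cfap20 was the only cilia gene with an adjusted p under 0.05 in any of these contrasts in either tissue, and its level was low in ganciclovir-treated wild-type mice. It read 34, 35.4 and 19.7 CPM in NestinTK-GCV+ mice, below every other striatal library. The share of all genes with that pattern was not counted. The ablated mice read 64.3, 68.3, 48.5, 64.3 and 74.3 CPM, the NestinTK-PBS+ mice 42.1, 64.3 and 64.3 CPM and the NestinTK+PBS+ mice 49.8, 49, 55.8 and 54.2 CPM. Ablated mice exceeded NestinTK-GCV+ mice by 1.11 on the log2 scale (SE 0.20, adjusted p = 0.00495), and NestinTK-GCV+ mice fell by 0.94 below NestinTK-PBS+ mice (SE 0.21, adjusted p = 0.0255), just under the 2-fold limit. The interaction was 1.23 (SE 0.28, adjusted p = 0.0358). Of all genes tested, 2.12%, 1.65% and 0.525% had an adjusted p under 0.05 in these contrasts, in that order and in the direction of Cfap20. As 1 of 33 cilia genes (3.03%), Cfap20 is thus a result about that gene and not about the cilia genes. Against NestinTK-PBS+ mice the ablated mice did not pass (0.17, SE 0.19, adjusted p = 0.888). Leaving out G3, the lowest library, ended the call against NestinTK-GCV+ mice and kept that of the interaction. In the SVZ the same contrast of Cfap20 was -0.12 (SE 0.35, adjusted p = 0.993).

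**Figure D5:**
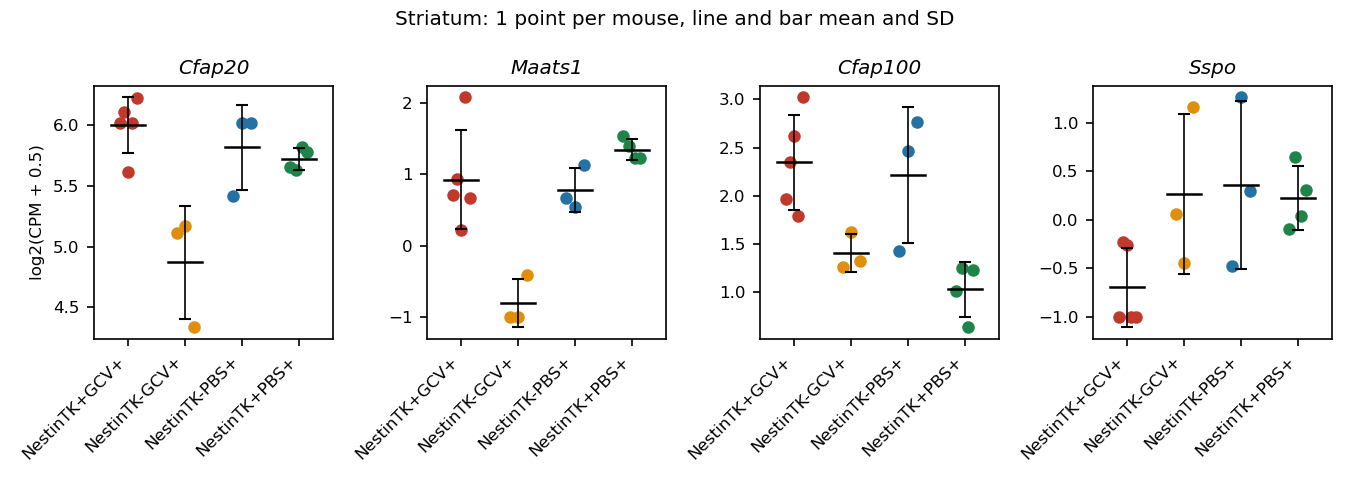
Level of Cfap20, Maats1, Cfap100 and Sspo in the striatum as log2(CPM + 0.5), 1 point per mouse with the mean and SD of each group. The 3 NestinTK-GCV+ mice are the lowest for Cfap20 and Maats1, and the NestinTK+GCV+ mice are the lowest group for Sspo.

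Maats1 was also lowest in NestinTK-GCV+ mice, at a far lower level: 0, 0 and 1 count in NestinTK-GCV+ mice, against 1.13, 1.41, 0.664, 3.7 and 1.09 CPM in A1 to A5, 1.09, 0.952 and 1.69 CPM in NestinTK-PBS+ mice and 2.39, 2.13, 1.83 and 1.84 CPM in NestinTK+PBS+ mice. It was called higher in ablated than in NestinTK-GCV+ mice (log2 fold change 3.77, SE 1.07, adjusted p = 0.0522) and lower in NestinTK-GCV+ than in NestinTK-PBS+ mice (-3.43, SE 1.13, adjusted p = 0.111). In the striatum the ablated mice thus overlapped the PBS mice, while in the SVZ they lay below all of them; the difference between tissues was not tested. The call against NestinTK-GCV+ mice was lost without G2, and that for ganciclovir in wild-type mice without G1, G2 or P3. Between the ablated and NestinTK-GCV+ groups 2 of 33 genes were called (Cfap20 and Maats1; 2.1% of all genes), for ganciclovir in wild-type mice 1 of 33 (Maats1; 2.46%), and for the interaction 2 of 33 (Cfap20 and Cfap100; 3.28%). Against NestinTK-PBS+ mice none was called by edgeR (1.06% of all genes), limma-voom or DESeq2. By edgeR, the 1 of 33 genes with an unadjusted p under 0.05 was Sspo, which was lower. Of all genes 3.69% were lower and 4.47% higher at that limit. The median of the 33 genes was 0.60 against NestinTK-GCV+ mice and -0.57 for ganciclovir in wild-type mice; these contrasts share the 3 NestinTK-GCV+ mice.

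The remaining genes named for the striatum overlapped between ablated and control mice. Hydin read 0.362 to 2.27 CPM in ablated and 0 to 2.39 CPM in control mice (log2 fold change 0.56, adjusted p = 0.853), and Ankub1 1.11 to 2.83 and 0.25 to 7.62 CPM (-0.64, adjusted p = 0.697). Rsph9 averaged 9.0 CPM ± 1.45 (SD, n = 5) and 7.12 ± 3.07 (SD, n = 10), and Tekt5, a tektin, 9.91 ± 3.1 and 10.3 ± 3.91. Cfap69, Cfap45, Cfap206, Cfap54 and Cfap61 had fitted log2 fold changes of 0.54, 0.86, 0.72, 0.51 and 1.12 against pooled controls, with adjusted p between 0.556 and 0.67. Cfap43, a dynein tether protein, read 0 to 3.62 and 0.236 to 7.2 CPM (-0.65, adjusted p = 0.805). Rsph4a, a spoke head protein, followed Cfap20 and Cfap100 in the interaction (1.68, SE 0.64, adjusted p = 0.201).

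Foxj1 and the summed ependymal markers of the striatum were also lowest in the same 3 mice. Foxj1 read 7.61, 7.55 and 3 CPM in NestinTK-GCV+ mice and 12.6 to 33.9 CPM in the other libraries (ganciclovir in wild-type mice, log2 fold change -1.89, adjusted p = 0.0141). The 13 tested ependymal markers summed to 48.1 to 62.3 CPM in NestinTK-GCV+ mice, 68 to 110 CPM in ablated mice, 81.7 to 109 CPM in NestinTK-PBS+ mice and 84.1 to 114 CPM in NestinTK+PBS+ mice, and 3 of 13 were called lower for ganciclovir in wild-type mice. The lists of other cilia genes differed for ganciclovir in wild-type mice. The median was -0.50 for dynein arms, -0.48 for the nexin-dynein regulatory complex and ruler, and -0.54 for other central apparatus genes. It was -0.45 for other microtubule inner proteins, -0.04 for dynein arm assembly and -0.02 for primary cilium genes. Of the microtubule inner proteins 6 of 7 lay below 0. The exception was Efhc2, at 2.17, 1.89 and 2.75 CPM in NestinTK-GCV+ and 0, 1.43 and 2.18 CPM in NestinTK-PBS+ mice. The share of ependyma in each dissection was not measured, and its part in the values of Cfap20 and Maats1 was not tested. T2, with 1350 CPM of Ttr the striatal library richest in that choroid plexus gene, also held 20 counts of Cfap221, which had at most 2 in any other striatal library.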

How the data were processed

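RNA was sequenced from the SVZ and striatum of 15 mice. The authors deposited raw counts per gene: SMART-Seq v4 libraries (SVZ, full-length cDNA) and QuantSeq 3′ libraries (striatum), trimmed with Trimmomatic (0.36), aligned with STAR (2.5.3a) to mm10 and counted with featureCounts; the strand setting was not given in the sources used here. Tissues were fitted apart with edgeR 4.0.16 (TMM factors, quasi-likelihood test, Benjamini-Hochberg over all genes tested) in R 4.3.3, as ablated against pooled controls, the study's own comparison and thresholds, and as 4 group means with contrasts. CPM values use TMM-scaled totals; the filter uses raw totals. limma 3.58.1 (voom), DESeq2 1.42.0, other factors, filters, control sets and leaving out each mouse were alternatives. The fit was also run on simulated counts in which all controls shared a common mean for each gene. That run cannot show how the fit behaves where control groups or single libraries differ, as they do here. Standard errors are the fitted change divided by the root of the test's F. Whether mice within a group shared a litter was not given. Depth limits low genes: libraries with 3 counts or fewer are described as at the floor. Beyond the CPM filter, no such count was left out of a test or ratio. Counting intervals cover counting error only.

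The genes, the other lists and the rule for those named were chosen with earlier results of these data known. Named are Maats1, Ankub1, Hydin and Sspo, every called gene, in each tissue the 8 smallest p and the 5 highest mean CPM, genes without overlap, and per contrast the 2 smallest p. Lists are described by counts and medians, with no set test. Positions and exon lengths are from GENCODE vM21 (GRCm38), while counting used an earlier release of the same build. Spag6 and Spag6l, like Rsph3a and Rsph3b, are near-identical copies, and genes with an antisense partner are uncertain.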

Additional observations from a re-analysis of the deposited data

Results flagged for a closer look

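Within the groups of 4 or 5 mice, 70 sets of values (each named gene, and the summed level) were searched for a library far from its nearest neighbour by Dixon's ratio, and 7 sets (10%) held one. Chance gives about 1 in 20 for continuous values, a rate that does not apply to sets with a single value above 0, where the ratio is fixed, and 2 of the 7 are of that kind. In the SVZ, Hydin read 19.8 CPM in A2 against 3.95 in the next ablated library, and Cfap61 read 1.71 CPM in A1 against 0.139. Tekt4 and Cfap221 each read 0.124 CPM in A3, which is 1 count, against 0 in the other ablated libraries. In the NestinTK+PBS+ mice, Sspo read 6.01 CPM in T4 against 1.46 in the next library, and Tekt4 read 9.84 CPM in T2 against 1.44. In the striatum, Maats1 read 3.7 CPM in A4 against 1.41.

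The genotype by treatment interaction was called for 1 of 41 genes in the SVZ, against 0.837% of all genes. In the striatum the interaction was called for 2 of 33, against 3.28%. Of these 3, Cfap20 had an adjusted p under 0.05, as did 0.525% (higher) and 0.292% (lower) of all genes tested in the striatum. For Sspo in the SVZ it was -7.74 on the log2 scale (adjusted p = 0.942), and the call was lost without G2, P1, P2 or the Ttr-rich libraries together. In the striatum it was 1.23 for Cfap20 (adjusted p = 0.0358) and 2.64 for Cfap100 (adjusted p = 0.0727).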

How the results depend on the processing

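No paired analysis was possible because the groups compared within a tissue hold different mice, and a shared number is only a name. Under other tools, control sets or left-out mice, here and above, the share of all genes called was not counted. Those counts of cilia genes are therefore descriptions, and a setting may call more or fewer genes of every kind. In the SVZ, 4 genes were called lower in ablated than in pooled control mice. Limma-voom called 1 (Maats1), DESeq2 7, an adjusted p under 0.05 gave 0, and NestinTK-GCV+ mice alone as controls gave 1 (Sspo); leaving out single mice gave 4 to 5. With the ablated mice set against the G, P and T mice, limma-voom called 1, 8 and 4 genes, DESeq2 called 5, 5 and 5, and leaving out single mice gave 1 to 3, 2 to 4 and 3 to 6; without the Ttr-rich libraries 1, 2 and 3 were called. For ganciclovir in wild-type mice limma-voom called 4, DESeq2 5, the data without Ttr-rich libraries 1, and leaving out single mice 0 to 2. For the SVZ interaction DESeq2 called 2, the data without Ttr-rich libraries 0, and leaving out single mice 0 to 2. The SVZ median of -0.80 became -1.65 by limma-voom, 0.12 with NestinTK-GCV+ mice alone as controls, -1.25 with NestinTK-PBS+ mice alone, -0.68 with controls of the 40 mouse number series alone and -0.47 without the Ttr-rich libraries; without single mice it ran from -1.26 (without A2) to -0.55 (without A5). The 40 series as controls called 3 genes lower, Tekt4 being untested there. In the striatum, genes called higher numbered 3 with NestinTK-GCV+ mice alone as controls, 1 with NestinTK+PBS+ mice alone, 2 with controls of the 40 series alone, and 0 to 1 without single mice (Cfap100 without P3). The striatal median of 0.14 became 0.40 by limma-voom, 0.28 under edgeR's own filter, 0.61 and -0.00383 with NestinTK-GCV+ or NestinTK+PBS+ mice alone, 0.31 against the mean of the group means, and 0.0705 to 0.30 without single mice. Leaving out single mice gave 1 to 3 calls against NestinTK-GCV+, 0 to 1 against NestinTK-PBS+, 1 to 2 against NestinTK+PBS+ mice, 0 to 3 for ganciclovir in wild-type mice, 0 to 1 for the transgene under PBS, where limma-voom called 0, and 2 to 4 for the interaction. Of 876 values of single named genes under alternatives, none that was called changed sign, 8 lost a call, and 15 gained one, as did 5 without a single mouse. Maats1 in the SVZ kept its call against pooled controls without any single mouse. The causes of these changes were not tested. A count of a few reads in a library limits what can be seen of the low genes.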
